A study of Homo sapiens with 9 samples.

Results

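Chemokines are small secreted proteins that draw leukocytes along a gradient, and tumor cells of epithelial origin make several of them. The 10 chemokine genes described here were taken by symbol from a table of 26364 gene names, and all 10 had a row and passed the expression filter in each comparison. They were *CXCL1*, *CXCL2*, *CXCL3*, *CXCL5*, *CXCL8*, *CXCL16*, *CX3CL1*, *CCL2*, *CCL5* and *CCL20*. RNA-seq counts were available for 9 libraries of A549, a human lung adenocarcinoma line that carries no *ALK* fusion of its own. The A549 group (2 libraries) was wild type by its label. The *LA* group (2 libraries) carried guides against *LOC388942* and *ALK*, which join an intergenic stretch of chromosome 2 to *ALK*, and according to the methods such cells were grown from a single cell after the guides were brought by lentivirus into A549 cells that express Cas9. The sgScr group (3 libraries) and the sg*FOS* group (2 libraries) carried the same pair of guides, with a scramble guide or a guide against *FOS* added. Chemokine RNA was measured in cultured tumor cells alone, so that the levels below are those of the tumor cells and not of a tumor.

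As background, chemokines act on G protein-coupled receptors, mostly on leukocytes. The CXC ligands with a Glu-Leu-Arg (ELR) motif before their paired cysteines, here *CXCL1*, *CXCL2*, *CXCL3*, *CXCL5* and *CXCL8* (interleukin 8), act on CXCR1 and CXCR2 and are best known for attracting neutrophils. *CCL2* attracts monocytes through CCR2, *CCL5* attracts T cells and monocytes, and *CCL20* attracts cells that carry CCR6. *CXCL16* and *CX3CL1* (fractalkine) are made as membrane proteins with a chemokine domain on a stalk, from which the proteases ADAM10 and ADAM17 release them. In epithelial cells, interleukin 1, TNF and other signals switch on many of these genes through NF-kappa B, and the FOS and JUN proteins of AP-1 also act on some of their promoters.

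The 5 ELR genes lie together on chromosome 4 of GRCh37, the build the reads were aligned to, between *CXCL8* (74606236 to 74609433, plus strand) and *CXCL2* (74962757 to 74964913, minus strand). *CXCL1* (74735110 to 74737025, plus strand), *CXCL5* (74861359 to 74864394, minus strand) and *CXCL3* (74902306 to 74904524, minus strand) lie between them, and each of the 5 annotated transcripts has 4 exons. *CCL2* (32582293 to 32584227) and *CCL5* (34198495 to 34207797) are on chromosome 17, as is *CXCL16* (4636828 to 4643223). *CX3CL1* is on chromosome 16 (57406389 to 57418956) and *CCL20* on chromosome 2 (228670455 to 228682280). *CXCL1* and *CXCL2* are near copies, with 90.9% identical bases over 1094 aligned positions of their transcripts, and *CXCL3* is 82.2% identical to *CXCL1*. Taken pair by pair, at most 5.63% of the 50-base stretches and 2.30% of the 75-base stretches of 1 of these 3 transcripts recur in the other. How reads that match several copies were counted is not given in the sources used here, so the split of reads among these 3 genes carries an uncertainty of its own.

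The promoters are shown because the *FOS* edit bears on AP-1 and because most of the ligands are known targets of NF-kappa B. RefSeq promoter windows on GRCh38.p14, from 250 bases before to 50 bases after the transcription start, were at hand for 6 of the 10 genes. Both strands were searched for the kappa B consensus, for the AP-1 word TGANTCA and for the TATA word TATAAA. The stretches below run from 140 bases before the start to the base before it, written in the direction of transcription, and capitals mark kappa B matches and the AP-1 match. The run of 11 capitals in *CXCL1*, *CXCL2*, *CXCL3* and *CXCL5* holds a match on each strand, shifted by 1 base.
CXCL1: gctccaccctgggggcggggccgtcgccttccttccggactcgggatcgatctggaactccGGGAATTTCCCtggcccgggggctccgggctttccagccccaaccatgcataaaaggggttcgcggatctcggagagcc
CXCL2: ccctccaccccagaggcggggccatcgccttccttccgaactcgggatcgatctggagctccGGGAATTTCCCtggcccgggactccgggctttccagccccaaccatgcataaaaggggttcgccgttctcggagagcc
CXCL3: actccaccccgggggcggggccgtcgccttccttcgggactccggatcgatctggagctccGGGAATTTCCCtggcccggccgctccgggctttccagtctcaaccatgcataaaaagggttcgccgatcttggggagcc
CXCL5: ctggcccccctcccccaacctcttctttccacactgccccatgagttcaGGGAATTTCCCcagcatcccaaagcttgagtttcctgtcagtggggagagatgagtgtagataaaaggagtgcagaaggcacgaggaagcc
CXCL8: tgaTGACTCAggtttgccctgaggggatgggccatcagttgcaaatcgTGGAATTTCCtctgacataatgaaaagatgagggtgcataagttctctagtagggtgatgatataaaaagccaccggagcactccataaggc
CCL20: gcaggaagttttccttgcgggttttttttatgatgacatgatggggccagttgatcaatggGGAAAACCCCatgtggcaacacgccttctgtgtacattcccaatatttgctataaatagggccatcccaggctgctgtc

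On GRCh38.p14 these stretches are chr4:73869253-73869392 for *CXCL1* (plus strand), chr4:74099196-74099335 for *CXCL2* (minus strand), chr4:74038690-74038829 for *CXCL3* (minus strand), chr4:73998678-73998817 for *CXCL5* (minus strand), chr4:73740429-73740568 for *CXCL8* (plus strand) and chr2:227813702-227813841 for *CCL20* (plus strand). The kappa B consensus was found in all 6 windows, against 20.1% of the 35116 windows of the table. The matches began at -79 in *CXCL1* and *CXCL3*, at -78 in *CXCL2*, at -91 in *CXCL5* and at -92 in *CXCL8*, and the match of *CCL20* covered -79 to -70 on the minus strand. *CXCL3* had a further match from -163 to -154. The AP-1 word was found in *CXCL8* alone of the 6, at -137 to -131, and in 7.71% of all windows. The TATA word was found in *CXCL8* and *CCL20*, and in 11.5% of all windows. A match describes the letters of these windows and does not show that a factor binds there.

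The library sizes ranged from 14507228 to 20456341 counts. *FOS* had 167 and 155 counts in A549 cells and 5448 and 1660 in *LA* cells. It had 4198, 4037 and 3528 in sgScr cells and 1008 and 1113 in sg*FOS* cells. *ALK* had 0 counts in both A549 libraries and 2 and 15 in *LA* cells. In sgScr cells it had 4, 1 and 3 counts, and in sg*FOS* cells 2 and 0. Replicates of the A549 and *LA* groups stood far apart (chi-square per degree of freedom of 134 and 62.3), and those of the sgScr and sg*FOS* groups lay close together (1.76 to 2.72, where counting noise alone gives 1). The labels do not say whether replicates were separate cultures, so that p-values measure the spread between these libraries only, which may be technical. Epithelial markers summed to between 7031 and 23979 normalized counts relative to library size (CPM, TMM-scaled) and leukocyte markers to between 38.0 and 74.7 CPM, with *PTPRC*, the leukocyte common antigen, at 0 counts in every library. The leukocyte sum came from *CD68* and *CD14*. Endothelial markers had at most 16 counts per gene, and fibroblast markers summed to between 7.60 and 18.4 CPM. *CDH1* was called higher and *CD14* lower in *LA* against A549, and *CD14* was not called there with the length and GC correction described below (-0.24, adjusted p = 0.627 from edgeR). In sgScr against *LA*, *EPCAM* was higher and *CDH1*, *CD14* (-0.77) and the fibroblast marker *COL1A1* (-1.18) were lower. In sgScr against A549, *CDH1* was higher and *KRT7*, *KRT8*, *KRT18* and *CD14* were lower, and *KRT7* was not called with the correction. In sg*FOS* against sgScr, 4 of the 6 epithelial markers, *CD68* and *COL1A1* (0.45) were higher, and *COL1A1* was not called with the correction. Their part in the chemokine values was not tested.

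Of the 10 chemokines, *CXCL5* had the highest level per kilobase of transcript in *LA*, sgScr and sg*FOS* cells and *CCL2* in A549 cells. On the scale of CPM per kilobase of transcript, which allows levels of different genes to be compared, *CXCL5* had a mean of 87.7 in A549 cells, 585 in *LA* cells, 137 in sgScr cells and 179 in sg*FOS* cells. In *LA* cells this was rank 65 of 24688 genes with a known length, and *CXCL1* stood at rank 168 and *CCL2* at rank 185. *CX3CL1* was the lowest of the 10 in each group, with a mean between 0.0598 and 1.34 CPM per kilobase. The other genes lay between these levels in each group, with *CCL5* next above *CX3CL1* in *LA* and sgScr cells.

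The make-up of the chemokine RNA also differed between the groups. The ELR genes held 55.6% and 65.0% of the summed CPM per kilobase of the 10 genes in A549 cells, and between 77.4% and 85.8% in the 7 libraries with the fusion guides. *CXCL5* made up 16.9% and 28.0% in A549 cells and between 43.6% and 47.9% in the other libraries. *CCL2* took the largest share in each A549 library, with 33.2% and 28.7%, and between 11.6% and 19.96% elsewhere. The summed CPM of the 10 genes was 449 and 608 in A549 cells, 1353 and 3060 in *LA* cells, 544, 517 and 515 in sgScr cells and 715 and 702 in sg*FOS* cells. These CPM sums of sgScr and A549 cells overlapped, although the shares of the ligands differed. Per kilobase the sums did not overlap, with 347 and 417 in A549 cells and 310, 287 and 288 in sgScr cells. The shares divide by transcript length but were not given the length and GC correction described below. *CCL2* has the shortest of the 10 transcripts, and on CPM alone *CXCL5* had the higher mean in A549 cells (214 against 87.1). In *LA* against A549 the log2 fold changes of *CXCL5* and *CCL2* were 2.696 and 0.90. With the correction they were 2.91 and 2.14, so that the gap between these genes was smaller with it.

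**Figure D1:**
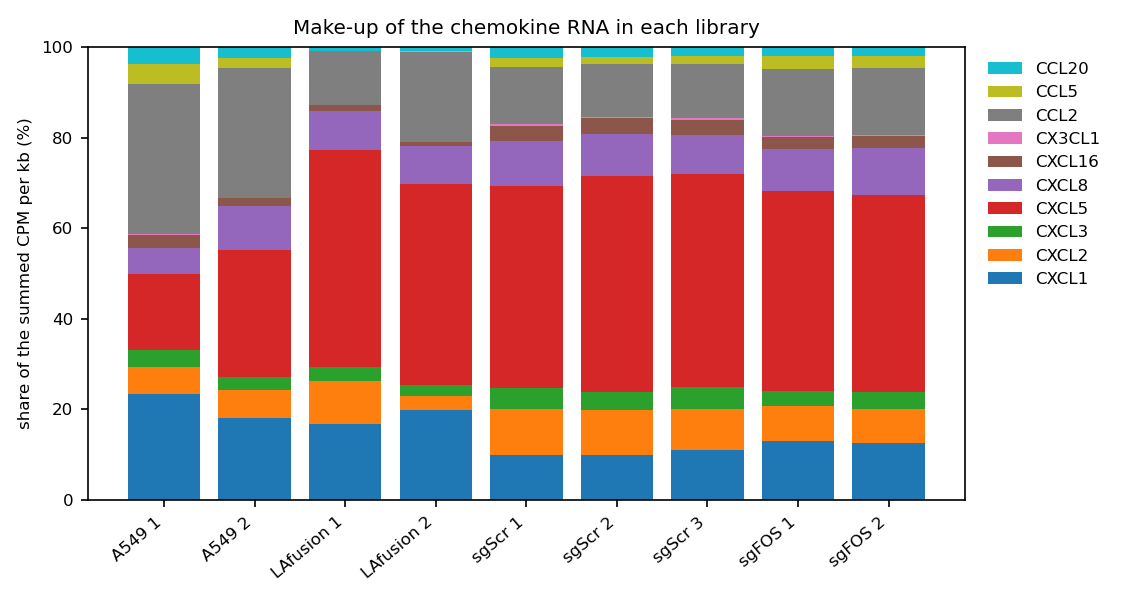
Share of each of the 10 chemokine genes in their summed CPM per kilobase of transcript (%), in each of the 9 libraries. *CCL2* (grey) takes 33.2% and 28.7% in the A549 libraries, and *CXCL5* (red) takes between 43.6% and 47.9% in the 7 libraries with the fusion guides.

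*LA* cells were compared with the A549 cells to ask what the fusion line makes differently. All 5 ELR genes were higher in *LA* cells, and the low-level genes *CCL5* and *CX3CL1* were lower, with no change called for *CXCL16*, *CCL2* and *CCL20*. Of the 14425 genes tested, 9.57% were called higher and 9.94% were called lower at an adjusted p under 0.05 (edgeR's quasi-likelihood test with Benjamini-Hochberg adjustment, as for all adjusted p-values below). The 10 chemokines had a median log2 fold change of 1.17, against 0.044 for all genes tested.

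*CXCL5*, also known as epithelial neutrophil-activating peptide, had 143 and 285 CPM in A549 cells and 889 and 1961 CPM in *LA* cells. Both *LA* libraries lay above both A549 libraries, and the log2 fold change was 2.696 (SE 0.50, adjusted p = 0.00141 from edgeR). *CXCL8*, a classic neutrophil attractant, had 32.1 and 67.7 CPM in A549 cells and 108 and 244 CPM in *LA* cells. The replicates differed within each group by more than 2-fold (2.11 and 2.26), yet the groups did not overlap, and the log2 fold change was 1.77 (SE 0.46, adjusted p = 0.0101 from edgeR). *CXCL1* had 95.1 and 88.3 CPM in A549 cells and 150 and 420 CPM in *LA* cells. Replicate 2 of the *LA* group held most of this increase, and the log2 fold change was 1.59 (SE 0.46, adjusted p = 0.0173 from edgeR).

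The other near copies of *CXCL1* followed it. *CXCL2* had 23.3 and 28.8 CPM in A549 cells and 82.2 and 62.3 CPM in *LA* cells, with a log2 fold change of 1.43 (SE 0.41, adjusted p = 0.0170 from edgeR). It was the ELR gene with the closest *LA* replicates, and the only one with replicate 1 above replicate 2. *CXCL3* had 13.9 and 12.6 CPM in A549 cells and 25.01 and 48.8 CPM in *LA* cells, with a log2 fold change of 1.44 (SE 0.45, adjusted p = 0.0262 from edgeR). With the counts of *CXCL1*, *CXCL2* and *CXCL3* summed, an alternative chosen after the data were seen, the log2 fold change was 1.55 (SE 0.43, adjusted p = 0.0153 from edgeR).

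**Figure D2:**
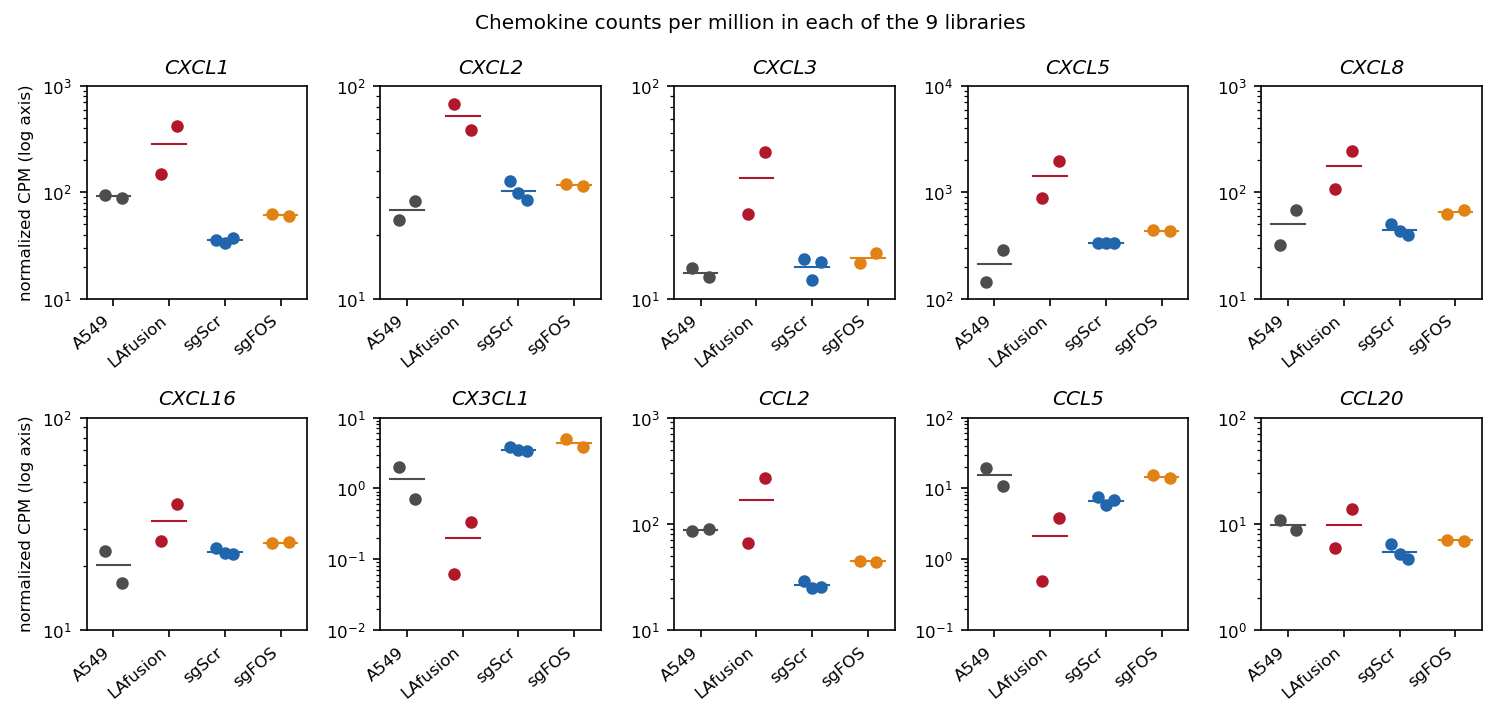
Normalized counts relative to library size (CPM, log axes that differ between panels) of the 10 chemokine genes in each library (points), with the mean of each group as a line. The *LA* points of the 5 ELR genes lie above those of every other group, and those of *CX3CL1* and *CCL5* lie below.

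The 2 genes for membrane-bound ligands did not move together. *CX3CL1* had 32 and 12 counts in A549 cells and 1 and 6 counts in *LA* cells, or 2.01 and 0.71 CPM against 0.062 and 0.33 CPM. Its log2 fold change was -2.75 (SE 0.97, adjusted p = 0.0476 from edgeR), a value that rests on 7 counts over both *LA* libraries. It was not called with DESeq2 (adjusted p = 0.0915), with library size alone (0.0976) or without a filter (0.0590). *CXCL16*, whose receptor CXCR6 sits on T cells and NKT cells, had 23.6 and 16.7 CPM in A549 cells and 26.3 and 39.1 CPM in *LA* cells. The groups did not overlap, but the log2 fold change of 0.66 (95% interval -0.22 to 1.54) did not pass the test (adjusted p = 0.286 from edgeR).

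Among the CC ligands, *CCL5* fell. It had 313 and 186 counts in A549 cells and 8 and 69 counts in *LA* cells, or 19.7 and 10.97 CPM against 0.49 and 3.81 CPM. Its log2 fold change was -2.86 (SE 0.66, adjusted p = 0.00465 from edgeR). *CCL2* had 85.5 and 88.6 CPM in A549 cells and 66.7 and 268 CPM in *LA* cells, so that the *LA* libraries lay on either side of the A549 libraries. The log2 fold change of *CCL2* was 0.90 (95% interval -0.095 to 1.89, adjusted p = 0.190 from edgeR). *CCL20* had 10.8 and 8.73 CPM against 5.91 and 13.7 CPM, with a log2 fold change of -0.031 (95% interval -1.07 to 1.00, adjusted p = 0.975 from edgeR).

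**Figure D3:**
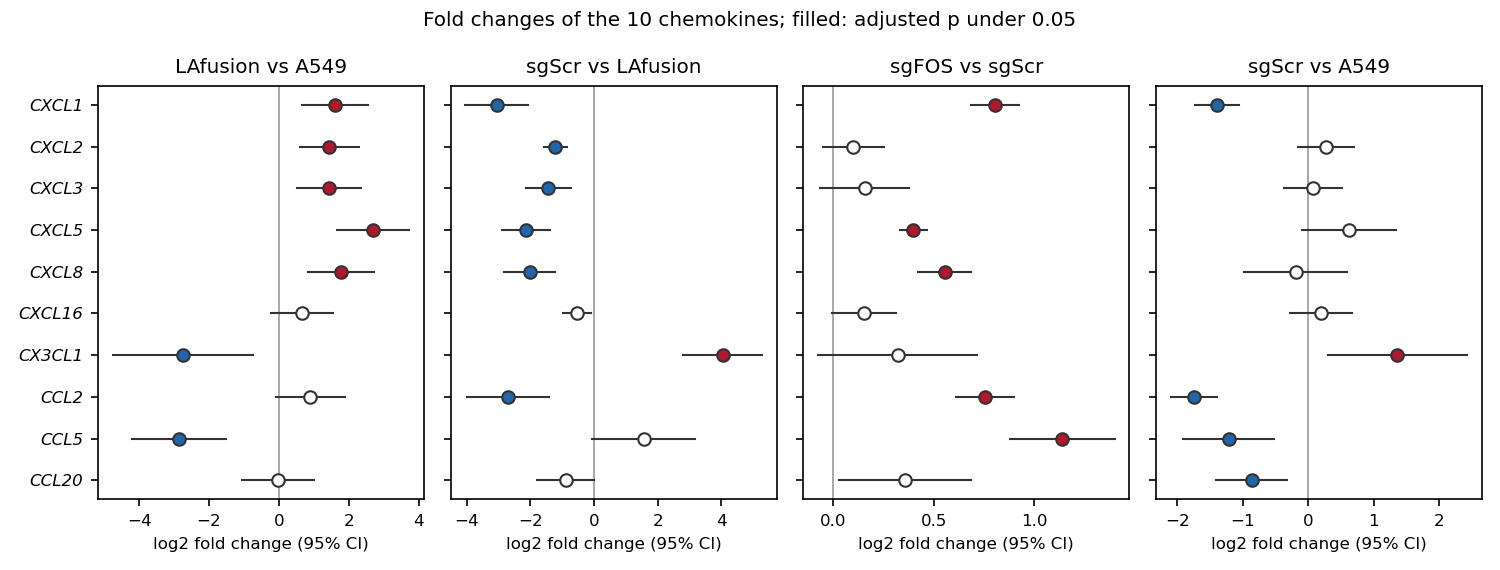
Log2 fold changes of the 10 chemokine genes in each of the 4 comparisons (points) with their 95% intervals from edgeR (lines), on axes that differ between panels. Red and blue points passed an adjusted p under 0.05, and open points did not. The 5 ELR genes are higher in *LA* against A549 and lower in sgScr against *LA*, and all 10 points lie above 0 in sg*FOS* against sgScr.

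These calls depended on single libraries, with 2 in each group. Without *LA* replicate 2, the library with the highest *CXCL1*, *CXCL5*, *CXCL8* and *CCL2*, the log2 fold changes of the 5 ELR genes ranged from 0.69 (*CXCL1*) to 2.03 (*CXCL5*). *CCL2* then had a value of -0.41. Without *LA* replicate 1, the values were 3.14 for *CXCL5* and 2.22 for *CXCL8*. Without A549 replicate 1, *CXCL5* was at 2.26. Not every call was kept in these fits, in which the lone library of a group is taken to vary like the other group. The number of all genes called changed as well, as given in the last paragraph. A lost call can therefore not be read as particular to these genes.

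Fold changes in this comparison moved with the length of the transcript, with a Spearman correlation of 0.57 across 14158 genes, and with GC content (-0.31). Chemokine transcripts are short, from 741 bases for *CCL2* to 2436 bases for *CXCL5*, with *CX3CL1* (3285 bases) as the one above the median of 3172 bases over the genes tested. After each library was corrected for length and GC content, 7 of the 10 genes were called higher and none lower, against 5.48% and 4.61% of the 14158 genes tested, and their median log2 fold change was 2.22. The corrected log2 fold changes were 2.50 for *CXCL1*, 2.31 for *CXCL2*, 2.40 for *CXCL3*, 2.91 for *CXCL5* and 2.43 for *CXCL8*. *CCL2* (2.14, SE 0.57, adjusted p = 0.0414 from edgeR) and *CXCL16* (1.05, SE 0.27, adjusted p = 0.0389) were then called higher too, and *CCL20* had a value of 1.08 (adjusted p = 0.191). *CCL5* (-1.91, adjusted p = 0.0882) and *CX3CL1* (-2.60, adjusted p = 0.0907 from edgeR) were no longer called lower, though both were at an unadjusted p under 0.05.

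**Figure D4:**
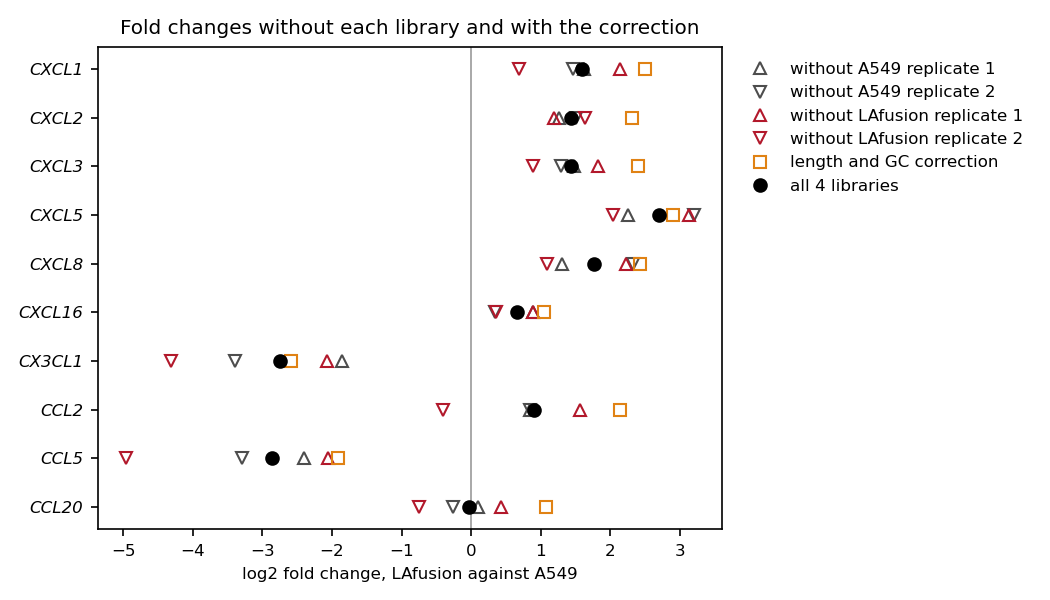
Log2 fold changes of *LA* against A549 for the 10 chemokine genes with all 4 libraries (black), without each library in turn (triangles) and after the length and GC correction (orange squares). The value of *CXCL1* ranges from 0.69 without *LA* replicate 2 to 2.50 with the correction, and *CCL2* and *CCL20* lie on both sides of 0.

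Editing of *FOS* was set against the scramble guide to ask what a guide against this AP-1 subunit changes in cells with the fusion guides. All 10 chemokines had a higher mean in sg*FOS* cells, and *CXCL1*, *CXCL5*, *CXCL8*, *CCL2* and *CCL5* passed the test. Among the 14196 genes tested, 12.2% were called higher and 10.5% were called lower. None of the 10 was called lower by edgeR or DESeq2, or at an unadjusted p under 0.05. Their median log2 fold change was 0.38, against -0.0015 for all genes tested.

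*CXCL1* had 35.8, 33.6 and 37.1 CPM in sgScr cells and 63.2 and 59.7 CPM in sg*FOS* cells. The replicates were tight, and the log2 fold change was 0.81 (SE 0.059, adjusted p = 1.8e-13 from edgeR). *CXCL5* had 336, 335 and 331 CPM against 443 and 430 CPM, a log2 fold change of 0.40 (SE 0.034, adjusted p = 7.9e-12 from edgeR). *CXCL8* had 50.3, 43.3 and 40.02 CPM against 62.0 and 68.1 CPM. Both sg*FOS* libraries lay above the 3 sgScr libraries, and the log2 fold change was 0.55 (SE 0.066, adjusted p = 2.3e-08 from edgeR).

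The other ELR genes differed from *CXCL1* in this comparison. *CXCL2* had 35.6, 31.4 and 29.1 CPM in sgScr cells and 34.5 and 33.8 CPM in sg*FOS* cells, with a log2 fold change of 0.10 (95% interval -0.051 to 0.25, adjusted p = 0.368 from edgeR). *CXCL3* had 15.3, 12.2 and 14.8 CPM against 14.8 and 16.4 CPM, with a log2 fold change of 0.16 (95% interval -0.065 to 0.38, adjusted p = 0.332 from edgeR). For both genes the groups overlapped, and the intervals lie below that of *CXCL1* (0.69 to 0.93), although the difference between genes was not tested. With the 3 near copies summed the log2 fold change was 0.46 (SE 0.046, adjusted p = 5.9e-10 from edgeR).

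*CCL5* had the largest change of the 10 genes, with 7.44, 5.80 and 6.84 CPM in sgScr cells and 15.3 and 14.02 CPM in sg*FOS* cells. Its log2 fold change was 1.14 (SE 0.13, adjusted p = 7.5e-09 from edgeR). *CCL2* had 29.1, 24.8 and 25.4 CPM against 44.6 and 43.98 CPM, with a log2 fold change of 0.76 (SE 0.071, adjusted p = 8.2e-11 from edgeR). *CCL20* had 6.48, 5.25 and 4.64 CPM against 7.08 and 6.87 CPM, and its log2 fold change of 0.36 was not called (adjusted p = 0.112 from edgeR).

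The membrane-bound ligands did not pass the test. *CXCL16* had 24.4, 23.03 and 22.8 CPM in sgScr cells and 25.6 and 26.0 CPM in sg*FOS* cells, with a log2 fold change of 0.15 (95% interval -0.0075 to 0.31, adjusted p = 0.170 from edgeR). *CX3CL1* had 3.79, 3.44 and 3.36 CPM against 4.97 and 3.804 CPM, with a log2 fold change of 0.32 (95% interval -0.076 to 0.72, adjusted p = 0.256 from edgeR). In all, 8 of the 10 genes had both sg*FOS* libraries above the 3 sgScr libraries, as did 22.6% of all genes tested. Leaving out any sgScr library kept the 5 calls, and so did the length and GC correction, which also called *CCL20* (0.48, adjusted p = 0.0270 from edgeR), beside 10.9% of 13954 genes called higher.

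The small p-values of this comparison rest on the close agreement of its 5 libraries. When the spread was estimated from all 9 libraries in 1 fit, the log2 fold changes were 0.80 for *CXCL1*, 0.39 for *CXCL5*, 0.56 for *CXCL8*, 0.75 for *CCL2* and 1.14 for *CCL5*, but no gene of 14849 passed the adjusted threshold in edgeR (444 genes, and *CXCL1* of the chemokines, had an unadjusted p under 0.05).

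sgScr cells and *LA* cells have the same fusion guides, so that their levels would be alike if the scramble guide and the handling of the cells made no difference. They were not: of the 10 chemokines, 6 were lower in sgScr cells (the 5 ELR genes and *CCL2*) and *CX3CL1* was higher. The background was 12.3% of 14521 genes called lower and 10.6% called higher, and the median log2 fold change of the 10 genes was -1.32, against -0.016 for all genes tested. This comparison uses the *LA* libraries of the first, so that a high *LA* value enters both. Whether both sets of libraries were made together is not given in the sources used here, so that the guide, the clone and the preparation of the libraries cannot be told apart.

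*CXCL1* fell most, from 150 and 420 CPM in *LA* cells to between 33.6 and 37.1 CPM in sgScr cells, with a log2 fold change of -3.05 (SE 0.41, adjusted p = 0.00672 from edgeR). *CCL2* fell by 2.71 on the log2 scale (SE 0.53, adjusted p = 0.0193 from edgeR), from 66.7 and 268 CPM to between 24.8 and 29.1 CPM. Every sgScr library lay below both *LA* libraries for these genes. *CXCL5* fell by 2.14, *CXCL8* by 2.03, *CXCL3* by 1.43 and *CXCL2* by 1.21 on the log2 scale, with adjusted p-values from 0.00525 to 0.0208 from edgeR. *CX3CL1* rose from 1 and 6 counts to 79, 70 and 58 counts, with a log2 fold change of 4.04 (SE 0.51, adjusted p = 0.00590 from edgeR). *CCL5* had 8 and 69 counts in *LA* cells and 155, 118 and 118 counts in sgScr cells, with a log2 fold change of 1.56 (95% interval -0.048 to 3.18, adjusted p = 0.135 from edgeR). *CXCL16* (-0.53, adjusted p = 0.0829 from edgeR) and *CCL20* (-0.90, adjusted p = 0.127) were not called. With the length and GC correction *CXCL16* was called lower too (-0.50, adjusted p = 0.0344 from edgeR), which made 7 genes lower and *CX3CL1* higher, beside 15.3% and 13.3% of the 14256 genes tested.

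Without *LA* replicate 2, *CXCL1* had a log2 fold change of -2.10. A fit with a lone *LA* library takes its spread from the close sgScr libraries, so that its calls cannot show whether the result holds. Fewer of the genes passed when an sgScr library was left out: 2 were called lower without sgScr replicate 1, 1 without sgScr replicate 2 and none without sgScr replicate 3 (6 at an unadjusted p under 0.05). The fold changes moved little in those fits, with *CXCL5* between -2.14 and -2.13. The number of all genes called changed as well when a library was left out, as given in the last paragraph. A lost call can therefore not be read as particular to these genes.

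sgScr cells were then set against A549 cells, which are also the reference of the *LA* comparison and are shared by both. Of the 10 chemokines, *CXCL1*, *CCL2*, *CCL5* and *CCL20* were lower in sgScr cells and *CX3CL1* was higher, with 21.7% of 14482 genes called lower and 19.8% called higher. The log2 fold change was -1.39 for *CXCL1* (SE 0.14, adjusted p = 0.00436 from edgeR) and -1.74 for *CCL2* (SE 0.14, adjusted p = 0.00412 from edgeR). *CCL5* fell by 1.22 and *CCL20* by 0.86 on the log2 scale (adjusted p = 0.0203 and 0.0266 from edgeR), and *CX3CL1* rose by 1.36 (SE 0.44, adjusted p = 0.0495 from edgeR). *CXCL5* had a value of 0.62 (95% interval -0.10 to 1.34), *CXCL2* of 0.27, *CXCL3* of 0.067, *CXCL16* of 0.19 and *CXCL8* of -0.19, none of which was called.

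Set side by side, *CXCL1* thus had a log2 fold change against A549 of 1.59 in *LA* cells and of -1.39 in sgScr cells, *CX3CL1* of -2.75 and 1.36, and *CCL2* of 0.90 and -1.74. *CXCL5* had a value above 0 in both, of 2.696 and 0.62. *CCL5* was below 0 in both, at -2.86 and -1.22. Here, too, the fold changes moved with the length of the transcript (Spearman 0.59 over 14217 genes). With the length and GC correction, which called 18.5% of these genes higher and 19.2% lower, *CXCL1* (-0.80) and *CCL2* (-0.97) were still called lower, *CCL5* (-0.45, adjusted p = 0.0903 from edgeR) and *CCL20* (-0.22, adjusted p = 0.462) were not, and *CXCL2* (0.88), *CXCL3* (0.71), *CXCL5* (0.61), *CXCL16* (0.57) and *CX3CL1* (1.59) were called higher. Without sgScr replicate 2 or sgScr replicate 3 none of the 10 genes passed in edgeR (5 had an unadjusted p under 0.05 in each fit). The number of all genes called also varied widely when a library was left out, as given in the last paragraph. These lost calls can therefore not be read as particular to the chemokines.

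The order of the groups differed between the ligands. For the 5 ELR genes and *CXCL16* the *LA* mean was the highest, with both *LA* libraries above all others. It was also the highest for *CCL2* and *CCL20*, but with overlap. The lower *LA* library of *CXCL16* lay just above the higher sg*FOS* library (26.3 against 26.0 CPM). How many of all genes have their highest level in *LA* cells was not counted. *CXCL1* then ran from A549 over sg*FOS* to sgScr cells, each step without overlap, by factors of 3.11, 1.49 and 1.73 between the means. *CXCL5* ran from *LA* over sg*FOS* and sgScr to A549 cells, by factors of 3.27, 1.31 and 1.56. For *CXCL8* the A549 libraries overlapped those of sg*FOS* cells and those of sgScr cells, which did not overlap each other. *CCL2* and *CCL20* had the same order as *CXCL1*, but their *LA* and A549 libraries overlapped. *CCL5* was highest in A549 and sg*FOS* cells, which overlapped, and lowest in *LA* cells, a factor of 3.11 under sgScr cells. *CX3CL1* was the one gene with its highest mean in sg*FOS* cells. These orders come from CPM without the length and GC correction. With it, the log2 fold changes of *CXCL1* were -0.80 in sgScr against A549 and 0.85 in sg*FOS* against sgScr. Those of *CCL20* were -0.22 and 0.48. The place of A549 cells in these orders may therefore differ with the correction.

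Across the 9 libraries, log2 CPM of *CCL2* and *CXCL1* had a Pearson correlation of 0.96, *CXCL5* and *CXCL8* of 0.95, and *CCL2* and *CCL20* of 0.91. *CCL5* and *CXCL2* had a correlation of -0.88, and *CX3CL1* and *CXCL1* of -0.81. These values describe 9 libraries that fall into 4 groups, and they were not corrected for transcript length. Among 9834 genes with a mean of at least 10 CPM, those most like *CXCL1* were *ANXA8L1* (0.99), *SLC2A6*, *PSD4*, *LBH* and *MYO15B* (0.98 each), and those most like *CXCL8* were *PIGG* and *PLSCR4* (0.98), and *RASEF*, *DAB2* and *CDH17* (0.97).

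Few other chemokines were expressed. Of the 38 other ligand genes in the table, 1 was tested in *LA* against A549 and 3 in each of the other comparisons. *CXCL6*, a further ELR ligand, had 5 and 10 counts in A549 cells, 0 and 7 in *LA* cells, 32, 42 and 31 in sgScr cells and 52 and 71 in sg*FOS* cells. It was higher in sg*FOS* than in sgScr cells by 1.21 on the log2 scale (SE 0.24, adjusted p = 0.000149 from edgeR), and higher in sgScr than in A549 cells by 1.94 (adjusted p = 0.0156 from edgeR). It was also higher in sgScr than in *LA* cells (3.07, SE 0.78, adjusted p = 0.0384 from edgeR), where the 5 other ELR genes were lower. *CCL26*, an eosinophil attractant, was lower in sgScr than in A549 cells (-1.69, adjusted p = 0.0343 from edgeR), and had a value of -0.54 that was not called with the length and GC correction.

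The cells themselves had little RNA for *CXCR1*, *CXCR2* and *CCR2*, receptors of the ELR ligands and of *CCL2*. *CXCR1* and *CCR2* had 0 counts in every library, which allows up to 3 counts each, and *CXCR2* had at most 4. Of the 23 receptor genes 4 were tested in *LA* against A549, and *CCR7*, a receptor for CCL19 and CCL21, was the only one called. It had 18 and 17 counts in A549 cells, 142 and 110 in *LA* cells, 66, 63 and 32 in sgScr cells and 28 and 44 in sg*FOS* cells, with a log2 fold change of 2.75 in *LA* against A549 (SE 0.62, adjusted p = 0.00419 from edgeR) and of -1.48 in sgScr against *LA*. *ACKR3*, a scavenging receptor for CXCL12, had 62 and 38 counts in *LA* cells and at most 5 in sgScr cells (log2 fold change -3.96, SE 0.48, adjusted p = 0.00534 from edgeR). sgScr cells had less *ACKR3* and *CCR10* and more *CCR7* than A549 cells (-2.59, -2.12 and 1.32 on the log2 scale), and *CCR10* was not called with the length and GC correction (-1.09, adjusted p = 0.108 from edgeR). The 3 receptors tested in sg*FOS* against sgScr were not called.

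Of the proteases that release or trim chemokines, *ADAM17* and *DPP4*, which clips the first residues of several chemokines, were higher in *LA* than in A549 cells. *ADAM17* had 265 and 780 counts in A549 cells and 1803 and 1584 in *LA* cells (log2 fold change 1.62, SE 0.45, adjusted p = 0.0150 from edgeR), and *DPP4* had 6 and 14 counts against 52 and 89 (2.69, SE 0.73, adjusted p = 0.0129 from edgeR). With the length and GC correction the values were 1.23 and 2.47, and both were called. sgScr cells had less *DPP4* (-2.26) and more *ADAM17* (0.41) than *LA* cells. They had more *ADAM17* (2.09) and *ADAM10* (1.08) than A549 cells, where the value of *ADAM10* was 0.00093 with the correction. Both ADAM genes were slightly lower in sg*FOS* than in sgScr cells, *ADAM10* by -0.14 and *ADAM17* by -0.11 on the log2 scale, and neither was called with the correction.

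The upstream inducers were read from 14 genes for cytokines, their receptors and adaptors, of which 12 were tested in *LA* against A549 and 4 were called higher. *TLR4*, the receptor for bacterial lipopolysaccharide, had 0 and 1 counts in A549 cells, 24 and 35 in *LA* cells, at most 4 in sgScr cells and at most 5 in sg*FOS* cells. *IL1RAP*, the shared chain of interleukin 1 receptors, rose by 1.92 and *TRAF6*, an adaptor of the same pathway, by 1.4998 (adjusted p = 0.0192 and 0.0235 from edgeR), or by 1.504 and 0.67 with the correction, under which *TRAF6* was not called. *IL1R1* was the other called gene (1.34), and it was not called with the correction either (0.74, adjusted p = 0.0856 from edgeR). In sgScr against *LA*, 3 of the 12 genes tested were called lower, namely *TLR4* (at most 4 counts in sgScr cells), *TLR3* (-1.26) and *IRAK1* (-0.45, not called with the correction, adjusted p = 0.0556 from edgeR). In sg*FOS* against sgScr, 3 of 11 were called higher (*IL17RA* by 0.29, *IRAK1* by 0.27 and *MYD88* by 0.25) and *IL1R1* was lower (-0.24). In sgScr against A549, 3 were called higher and 2 lower, with *IL1RAP* (1.56), *IL17RC* (-1.22) and *IL1R1* (1.03) the largest. With the correction these values were 1.07, -0.49 and 0.42 and all 3 were called, and *TRAF6* (1.007, or 0.16 with the correction, adjusted p = 0.434 from edgeR) was not. *TNF* had at most 8 counts in any library and *IL1B* at most 42.

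All 16 genes for NF-kappa B subunits, their kinases and their inhibitors were tested. In *LA* against A549, *REL* (2.58, SE 0.48, adjusted p = 0.00148 from edgeR), *NFKBIZ* (2.05, adjusted p = 0.00385) and *TNFAIP3* (1.61, adjusted p = 0.0209 from edgeR) were called higher. *TNFAIP3* and *NFKBIZ* are themselves well-known targets of NF-kappa B. With the correction *REL* (1.45) and *NFKBIZ* (1.74) were called and *TNFAIP3* (1.16) was not. In sgScr against *LA*, *NFKBIZ* (-1.27) and *BCL3* (-0.52) were lower. With the correction *BCL3* was not called (-0.44, adjusted p = 0.176 from edgeR), and *TNFAIP3* (-1.03) was called lower and *NFKBIE* (0.42) and *REL* (0.45) higher. In sgScr against A549, 4 were called higher and 2 lower, with *REL* (3.03), *BCL3* (-1.34) and *CYLD* (1.18) the largest. With the correction 6 were called higher and none lower (*REL* at 1.94), and *BCL3* (-0.32, adjusted p = 0.0958) and *CYLD* (0.27, adjusted p = 0.136 from edgeR) were not called.

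In sg*FOS* against sgScr, 8 of the 16 were called higher and 1 lower, beside the 12.2% and 10.5% of all genes given above. *TNFAIP3* (0.63, SE 0.081, adjusted p = 1.4e-07 from edgeR) and *RELB* (0.47, SE 0.073, adjusted p = 5.8e-06 from edgeR) had the largest increases and *NFKBIZ* was the gene called lower (-0.38). The median of the 16 genes was 0.13. With the correction 6 were called higher and 1 lower.

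Of the 7 *FOS* and *JUN* genes, 4 were called higher in *LA* against A549, where *FOSB* (7.10), *FOS* (4.41) and *FOSL2* (2.29) had the largest values. *FOSB* had 17 and 2 counts in A549 cells and 2406 and 318 in *LA* cells. In sgScr against A549, *FOS* (4.34), *FOSB* (6.72) and *JUN* (3.32) were called higher too. Against *LA* cells, sgScr cells had more *JUN* (1.09) and less *JUND* (-0.88) and *FOSL2* (-0.58). *FOSB* (-1.54) and *FOS* (-1.48, SE 0.044, adjusted p = 2.0e-25 from edgeR) fell and *FOSL2* (0.47) and *FOSL1* (0.44) rose in sg*FOS* against sgScr. *FOS* RNA remained at 1008 and 1113 counts, and the counts do not show whether the protein was made.

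The last list holds 7 genes that act on the stability of chemokine mRNA, most of them through AU-rich elements. *ZFP36* (tristetraprolin), which speeds the decay of such mRNA, had 348 and 460 counts in A549 cells, 2678 and 321 in *LA* cells, 1479, 1343 and 981 in sgScr cells and 637 and 612 in sg*FOS* cells. The *LA* libraries lay on either side of the A549 libraries, although the gene was called higher there (1.87, SE 0.60, adjusted p = 0.0315 from edgeR), and it was not called with the correction. *ZC3H12A* (regnase-1) was called higher in *LA* cells (1.22), and in sgScr against *LA* it was lower (-0.98) while *HNRNPD* (0.62) and *KHSRP* (0.30) were higher. In sg*FOS* against sgScr, *ZFP36* (-0.61, SE 0.067, adjusted p = 4.4e-09 from edgeR), *ZFP36L2* (-0.23) and *HNRNPD* (-0.16) were lower. In sgScr against A549, *ZFP36* (1.37) and *ZFP36L1* (1.25) were higher. The part of these genes in the chemokine levels was not tested.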

How the data were processed

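The 9 RNA-seq libraries of A549 cells were analysed. The authors deposited a table of raw counts, that is, the number of reads assigned to each gene in each library, with no scaling. According to the methods, the mRNA libraries were stranded, reads were paired, and hg19 was the genome used for alignment, and the submitters' processing notes name STAR 2.7.10b and DESeq2 1.26.0. The counting program and its annotation are not given in the sources used here, so that overlapping genes and near copies carry an added uncertainty. Groups and replicate numbers came from the sample labels. The 10 chemokines, the other gene lists and the motifs were chosen with earlier results of these data known.

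Counts were tested in R 4.3.3 with edgeR 4.0.16 (TMM normalization, filterByExpr, two-sided quasi-likelihood test, Benjamini-Hochberg adjustment over all genes tested, called at an adjusted p under 0.05) on the libraries of each comparison alone. CPM were scaled by TMM over all 9 libraries, and 0.5 was added before log2 for correlations. Where a library has 0 counts, up to 3 are compatible with it, by counting error alone. Transcript lengths and positions came from GENCODE release 44 on GRCh37. The length and GC correction was a loess curve (span 0.5) per library that served as an offset, with TMM factors computed after it. Procedures were tested on simulated data. Python 3.11.15 was used for annotation and plots. Alternatives were DESeq2 1.42.0, other normalizations and filters, all 9 libraries in 1 fit, the replicate number as a block, the study's threshold and leaving out each library. Named genes were the 10 chemokines, up to 3 called genes with the largest change per list and comparison, the 5 genes most like *CXCL1* and *CXCL8*, and *FOS* and *ALK*. Genes named beyond these were chosen after their values were seen. Same-numbered libraries deviated with a correlation of -0.26 in *LA* against A549 and between -0.14 and 0.039 elsewhere, and no label pairs them, so that the block is an alternative.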

Additional observations from a re-analysis of the deposited data

How the results depend on the processing

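The depth limits *CX3CL1* and *CCL5* in *LA* cells most, with 1 and 8 counts in *LA* replicate 1. In *LA* against A549, where 2814 genes, 5 members higher and 2 lower were called, 1 member was called lower with DESeq2, with library size alone, without a filter and under the filter of 50 counts on average (*CX3CL1* lost or filtered out, *CCL5* kept), and none with the length and GC correction (1428 genes, 2 members at an unadjusted p under 0.05). All 9 libraries in 1 fit gave 6799 genes and the study's threshold 4977. *CCL20* was at 0.28 with library size alone, 0.0012 with all 9 libraries in 1 fit, 1.08 with the correction and 0.90 with the block added to it. In sgScr against *LA* (3327 genes, 1 higher, 6 lower), 2 members were called higher with DESeq2 and 0 under the filter of 50 counts on average, where *CX3CL1* is filtered out, and 1436 genes were called with all 9 libraries in 1 fit. In sg*FOS* against sgScr (3221 genes, 5 higher, 0 lower), DESeq2 called 1831 genes, the study's threshold 818, and all 9 libraries in 1 fit 0 genes and 0 members (444 genes at an unadjusted p under 0.05). In sgScr against A549 (6009 genes, 1 higher, 4 lower), 0 members were higher with RLE normalization and under the filter of 50 counts on average, 2 were lower with all 9 libraries in 1 fit, 5 were higher and 2 lower with the correction, and *CXCL8* was at 0.077 with it. The causes were not tested.

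With the replicate number as a block, 1519 genes, 2 members higher and 1 lower were called in *LA* against A549, with *CXCL1* (1.41), *CXCL2*, *CXCL3* and *CX3CL1* lost, 1230 genes in sgScr against *LA* and 3480 in sgScr against A549, where *CCL20* was lost. The block with the length and GC correction called 1 member lower in *LA* against A549, 1554 genes in sgScr against *LA*, and 3152 genes, 3 members higher and 2 lower in sgScr against A549, with *CXCL8* at 0.15. In sg*FOS* against sgScr the block kept 5 members higher among 3150 genes. The crossed pairing of *LA* and A549, chosen after seeing the data, called 3878 genes, 5 members higher and 2 lower.

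Leaving out each library in turn gave 253 to 5078 genes, 0 to 5 members higher and 0 to 2 lower in *LA* against A549, with *CCL20* between -0.74 and 0.43 and *CCL2* between -0.41 and 1.56. The ranges were 389 to 9926 genes, 0 to 2 higher and 0 to 8 lower in sgScr against *LA*, 1916 to 3518 genes with 5 to 6 higher in sg*FOS* against sgScr, and 3 to 11715 genes, 0 to 4 higher and 0 to 5 lower in sgScr against A549, where *CXCL3* lay between -0.022 and 0.16, *CXCL8* between -0.61 and 0.43 and *CXCL16* between -0.051 and 0.47.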
